A study of Mus musculus and Homo sapiens with 6 samples.

Results

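Open chromatin of NMuMG cells was compared between libraries made from few cells, 25000 and 50000, and libraries made from more cells, 75000 and 100000. The members are regions of the genome, found by merging the 4 deposited peak lists wherever peaks overlapped by at least 1 bp. Of 55702 merged regions, 994 had a peak in both low-input libraries and in neither high-input library, and 1568 had a peak in both high-input libraries and in neither low-input library, so that 2562 regions separated the cell numbers completely. The 4 libraries can be split into 2 against 2 in 3 ways, and the other 2 pairings, which mix low with high input, are given beside the main counts and shares as a baseline.

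NMuMG is an epithelial line from normal mouse mammary gland, described in the labels as kept in medium with serum, below passage 10 and at time 0 h, with no drug or gene change named. The cells were detached with trypsin, counted by machine, lysed in a detergent buffer and treated with Tn5. Each cell number is 1 library of this line, labelled 25k, 50k, 75k or 100k, and nothing in the labels says that they came from separate cultures. The series' design text gives its purpose as tuning the ATAC-seq protocol. Its 2 libraries of another cell line were not analysed here.

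ATAC-seq (assay for transposase-accessible chromatin by sequencing) uses the Tn5 transposase, which cuts DNA and inserts adapters where nucleosomes leave it free, above all at promoters and enhancers. A peak is a stretch where such insertions pile up over the surroundings. Mitochondrial DNA is not wrapped in nucleosomes and is readily cut by Tn5, which is why it often takes up many reads in this assay. The ratio of transposase to nuclei is known to affect how much DNA is cut, and cell number is therefore one of the settings commonly tuned.

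With 2 libraries on each side, an exact two-sided permutation test over libraries cannot give a p below 0.333, and no test between low and high input was run. Differences are given as counts, ranks and shares beside the same quantities in the other pairings. Each 95% interval is Clopper-Pearson and accounts for counting alone, not for the spread between libraries. The lists held 38878 (25k), 43832 (50k), 41509 (75k) and 45530 (100k) peaks, so the low and high lists overlap in length. They carry no read counts, and the sequencing depth is unknown. Every listed peak scored at least 8 on the authors' whole-number scale, and a region counted as absent from a library had no peak at or above that level there. Of 10 epithelial marker genes, 7 had a peak in or within 1 kb of the gene in each library, among them Cdh1 (E-cadherin), Krt8 and Elf3, while Epcam, Esrp1 and Cldn3 had none. Of 7 fibroblast markers 3 had one in each library. The blood markers with a peak were 1, 1, 2 and 2 of 6, and the endothelial ones 3, 3, 2 and 3 of 5. Peaks in every library were found at the fibroblast markers Col1a1, Pdgfra and Pdgfrb, at the blood cell factor gene Spi1 and at the endothelial cadherin gene Cdh5 (scores of 47, 54, 50 and 57), while Ptprc, Dcn and Kdr had none in any library. The part of other cell types in the results was not tested.

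Regions that separated low from high input lay at a start of a gene in a few cases only. A RefSeq table of promoter windows on GRCm38.p6, each from 250 bases before to 50 after an annotated start, has 32817 windows. Of these, 58 were covered by a region of the low-input libraries alone and 122 by one of the high-input libraries alone. The 2 windows shown for each side are from genes whose regions had the highest scores, to show what such a start looks like. Coordinates are those of mm10, which names the same assembly as GRCm38. Capitals mark matches on either strand to the letters of a GC box, which are GGGCGG, to a box named CCAAT for its letters, or to the TATA box, searched for here as TATAAA. For low input these are Cacnb3, a calcium channel subunit gene (chr15:98632078-98632377, plus strand), and Rgs9, which encodes a regulator of G protein signalling (chr11:109298132-109298431, minus strand). For high input they are Mex3a, an RNA-binding protein gene (chr3:88531696-88531995, plus strand), and Wls, whose protein carries Wnt ligands to the cell surface (chr3:159839400-159839699, plus strand).
Cacnb3: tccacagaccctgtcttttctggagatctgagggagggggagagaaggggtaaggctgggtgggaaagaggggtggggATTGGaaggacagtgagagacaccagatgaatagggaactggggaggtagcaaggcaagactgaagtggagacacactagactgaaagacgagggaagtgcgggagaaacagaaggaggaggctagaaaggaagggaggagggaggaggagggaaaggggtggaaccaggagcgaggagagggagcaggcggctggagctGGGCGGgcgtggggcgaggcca
Rgs9: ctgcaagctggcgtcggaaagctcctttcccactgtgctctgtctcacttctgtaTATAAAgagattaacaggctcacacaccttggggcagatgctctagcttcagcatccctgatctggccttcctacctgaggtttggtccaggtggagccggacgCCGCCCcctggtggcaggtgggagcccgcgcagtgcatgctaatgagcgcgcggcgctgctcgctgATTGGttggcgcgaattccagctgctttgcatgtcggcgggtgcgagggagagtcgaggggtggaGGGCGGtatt
Mex3a: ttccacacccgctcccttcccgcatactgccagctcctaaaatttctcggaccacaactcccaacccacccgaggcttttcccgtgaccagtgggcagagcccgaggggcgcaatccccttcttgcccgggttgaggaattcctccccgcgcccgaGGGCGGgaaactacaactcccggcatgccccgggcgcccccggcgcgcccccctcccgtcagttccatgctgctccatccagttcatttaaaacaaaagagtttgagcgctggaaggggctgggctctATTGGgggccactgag
Wls: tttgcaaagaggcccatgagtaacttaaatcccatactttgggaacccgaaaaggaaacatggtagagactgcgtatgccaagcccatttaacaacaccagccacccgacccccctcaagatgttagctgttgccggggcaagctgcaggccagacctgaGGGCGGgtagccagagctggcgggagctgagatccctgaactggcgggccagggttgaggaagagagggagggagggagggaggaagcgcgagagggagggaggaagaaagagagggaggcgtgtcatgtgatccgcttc

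The Cacnb3 window was covered by 1 peak with a score of 17 at 25k and 1 with 22 at 50k, and by none at 75k and 100k. The Rgs9 window had 17 at 25k, 14 at 50k and none above. At Mex3a the scores were 15 at 75k and 21 at 100k, and at Wls 15 and 19, with no peak at 25k or 50k in either. The lists' median scores were 15 or 16, and of these 8 scores 5 were above the median of their list, 2 at it and 1 below. The window of Cacnb3 holds 59.7% G and C with 7 CpG sites, that of Rgs9 60.3% with 19, that of Mex3a 63.0% with 20 and that of Wls 58.0% with 11.

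As sets, both kinds of promoter were poorer in G and C than promoters open in every library. The median G and C content was 56.3% in the 58 low-input windows and 55.2% in the 122 high-input windows. It was 62.3% in 10137 windows with a peak in all 4 libraries, 48.7% in 20818 windows with none, and between 54.3% and 56.5% in the 4 sets of the other pairings. The GC box letters stood in 44.8% (31.7 to 58.5) of the low-input windows and 38.5% (29.9 to 47.8) of the high-input windows, against 35.6% of all windows, 69.8% of those open in all 4 libraries and 39.5% to 51.5% on the sides of the other pairings. The letters TGANTCA, bound by AP-1 factors, stood in 5 low-input windows (8.62%, 2.86 to 19.0) and 20 high-input windows (16.4%, 10.3 to 24.2), against 7.81% of all windows. In the other pairings this share ran from 10.5% to 22.2%, so the high-input value lies within the range of splits that mix cell numbers. GGAATG, the core bound by TEAD factors, stood in 17.2% of the windows on each side (8.59 to 29.4 at low and 11 to 25.1 at high input), in 14.7% of all and in 10.5% to 14.3% on the sides of the other pairings. None of these letter strings contains another, and a match is not a binding site.

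More regions were found at high than at low input alone, but a split that mixes cell numbers gave a larger difference. The low-input regions were 1.78% of all merged regions and the high-input regions 2.81%, a ratio of 1.58. Pairing 25k with 75k against 50k with 100k gave 732 regions (1.31%) against 2110 (3.79%), a ratio of 2.88. Pairing 25k with 100k against 50k with 75k gave 1182 (2.12%) against 1306 (2.34%), a ratio of 1.1. In total 2562 regions separated low from high input, 2842 separated the 2 shorter lists from the 2 longer ones, and 2488 separated the remaining pair. The number for cell input thus lay between the numbers for the other splits, and the widest split was the one by list length.

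List length was then made equal by keeping the 38878 highest-scoring peaks of each library, with ties at the lowest score kept drawn at random. The regions of low input alone then numbered 1150 and those of high input alone 1305, a ratio of 1.13. The totals became 2455 for low against high, 2359 for 25k and 75k against 50k and 100k, and 2413 for 25k and 100k against 50k and 75k. Low against high was the largest of the 3 in each of 20 draws of the ties, with totals of 2426 to 2516 against 2311 to 2371 and 2351 to 2413. The 3 totals at equal length lie close together, and no spread between libraries of the same cell number is there to set them against.

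**Figure D1:**
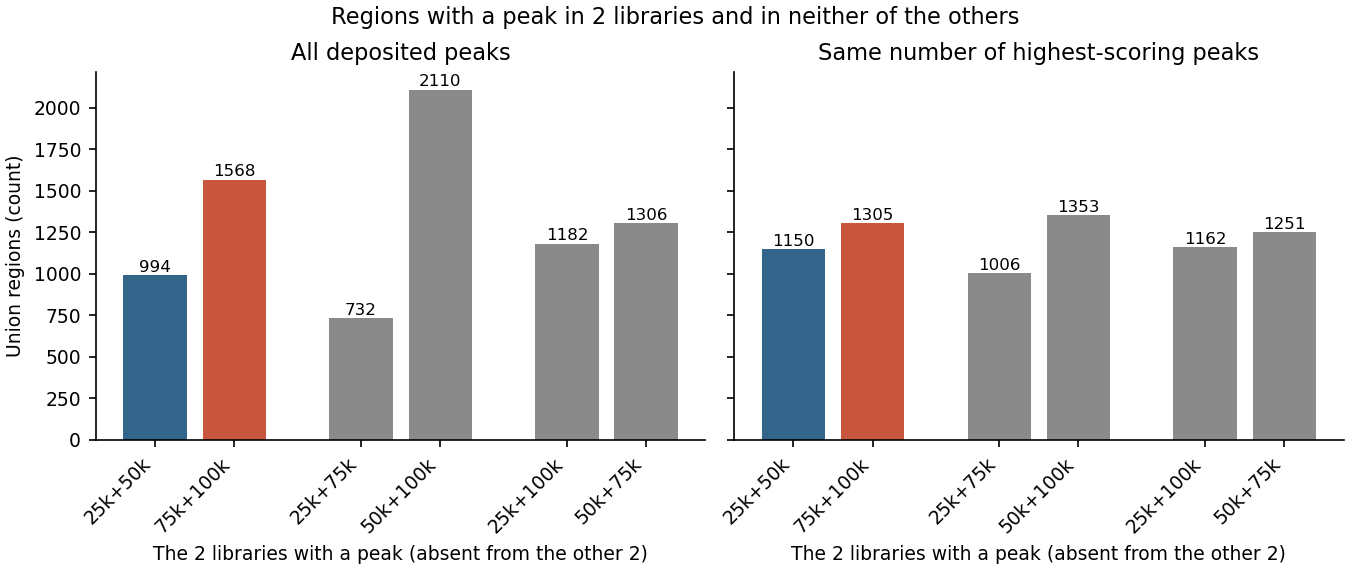
Number of merged regions (vertical axis) with a peak in the 2 libraries named under each bar and in neither of the others, with all deposited peaks (left) and with 38878 peaks per list (right). Blue is low input, red is high input and grey the mixed pairings. With all peaks the tallest bar is 50k+100k at 2110, and with equal lists low and high input stand at 1150 and 1305.

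Regions found in a single library were more numerous than those of any 2 libraries alone. A peak at 100k alone was found in 4725 regions, at 50k alone in 4146, at 75k alone in 3215 and at 25k alone in 2521. Regions missing from 1 library only numbered 2951 for 25k, 1363 for 50k, 2034 for 75k and 1068 for 100k. The 25k list, the shortest, lacked the most regions that the other 3 share. In all 4 libraries, 25787 regions (46.3%) had a peak.

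The regions of low or high input alone were weak in the libraries that had them. The median score was 10 in all 4 libraries, which put the median region at percentile 24.4 (25k) and 23.1 (50k) of its list for low input, and 24.5 (75k) and 23.0 (100k) for high input. The highest score was 24 for low input and 29 for high input. A region's higher score was 11 or less in 52.6% (49.5 to 55.8) of the low-input and 48.3% (45.8 to 50.8) of the high-input regions. Their median widths were 500 and 550 bp, against 750 bp for regions found in all 4 libraries. On the sides of the other pairings the median scores were 9 or 10, and a region's higher score was 11 or less in 46.3% to 58.2%. Their highest scores were 28 to 34, above the 24 of low input.

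**Figure D2:**
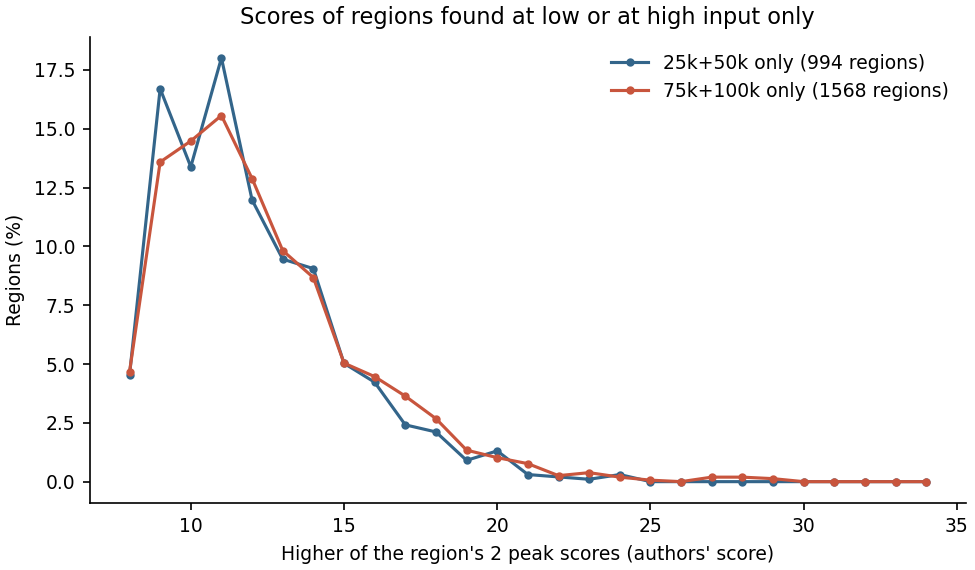
Share of regions (vertical axis, %) by the higher of a region's 2 peak scores (horizontal axis, the authors' score), for regions of the low-input libraries alone (blue) and of the high-input libraries alone (red). Both curves peak at 11 and end at 24 and 29.

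The share of regions absent from both libraries of the other side fell steeply with score. Of regions found in both low-input libraries with a lower score of 8 or 9, 662 of 4800 (13.8%, 12.8 to 14.8) were in neither high-input library. The share was 3.88% (315 of 8109) for lower scores of 10 to 14 and 0.215% (17 of 7917) for 15 to 24. Of 9057 regions with a lower score of 25 or more, 0 were absent from both high-input libraries, with an upper limit of 0.0407%. From the high side the shares were 19.8% (969 of 4884), 7.04% (561 of 7973), 0.459% (38 of 8285) and 0 of 10527, the last with an upper limit of 0.035%. In the other pairings, too, no region with a lower score of 25 or more was absent from both libraries of the other side. At scores of 8 or 9 their shares ran from 11.2% for 25k and 75k to 25.4% for 50k and 100k, which bracket the values for low and high input.

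The strongest regions of low input alone lay mostly away from annotated starts, which are known for 17491 of 21896 protein-coding genes. These regions are the 8 with the highest percentile in the library where they ranked lower. The first, chr4:145204701-145205250, scored 20 at 25k and 20 at 50k, and lies 7118 bp from Tnfrsf1b, a receptor gene for tumour necrosis factor. A region at chr11:53754951-53755500 scored 18 and 21, with its centre at -14789 bp from the start of Irf1, an interferon regulatory factor gene. At chr9:116335501-116336050, in the long non-coding RNA gene D730003K21Rik, the scores were 18 and 19. The Cacnb3 region shown above, chr15:98632051-98632600, is the one of the 8 with its centre within 1 kb of an annotated start. The other 4 lie in Tmem72 (18 and 18), between genes on chromosome 4 (16 and 24), 770 bp from the interferon receptor gene Ifnlr1 (16 and 18), and over Recql5, a DNA helicase gene, and Smim5 (15 and 17). None of these 8 regions has a listed peak at 75k or 100k. In percentiles they stand between 50.5 and 68.2 of their lists, so even the strongest regions of low input were in the middle of the lists.

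The strongest regions of high input alone stood in a similar but slightly higher range of their lists. The first, chr11:94159401-94159950 in the non-coding gene Gm35338, scored 21 at 75k and 27 at 100k. A region in Cdk14, a cyclin-dependent kinase gene, at chr5:5320651-5321250 scored 20 and 21. In Tmeff2, which encodes a membrane protein, chr1:50980051-50980600 scored 24 and 20. At chr10:81168651-81169250, 931 bp from the SUMO ligase gene Pias4, the scores were 19 and 20. Further regions lie on chromosome 17 between genes (21 and 19), in the ubiquitin ligase gene Rnf121 (18 and 19), and on chromosome 1 with Xkr4 as the nearest gene (18 and 18). The percentiles of these 7 regions ran from 55.4 to 72.2, and none of them had its centre within 1 kb of an annotated start.

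Position relative to genes differed little between low and high input, but the high-input shares near gene starts and gene ends were the highest of all sides. The centre was within 1 kb of an annotated start in 8.85% (7.16 to 10.8) of low-input and 10.2% (8.75 to 11.8) of high-input regions, intervals that overlap. The other 4 sides had 7.12% to 9.31%, and regions of all 4 libraries 31.5%. Elsewhere inside genes lay 53.3% and 52.5%, and between genes 37.8% and 37.3%. The median distance to a start was 17.9 kb at low and 19.3 kb at high input, against 8.72 kb for regions of all 4 libraries. Starts are known for 17491 of 21896 protein-coding genes, so shares near starts are too low. The gaps also lengthen distances, as for the high-input region in Stk3, whose centre lay at -1353452 bp from the nearest known start. A high-input region in Smad7, on chromosome 18, had no known start on its chromosome. Such regions were left out of the median distance and counted as not near a start. Counting either annotated end of any gene, an alternative chosen after seeing the data, the shares were 13.0% (11 to 15.2) and 16.6% (14.8 to 18.6), with 13.5% to 14% on the other sides. Within 1 kb of a region of all 4 libraries lay 10.1% (8.26 to 12.1) of the low-input and 8.23% (6.91 to 9.70) of the high-input regions. On the sides of the other pairings this share was 7.35% to 8.8%.

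Chromosome 15 held more of the low-input than of the high-input regions. It had 7.75% (6.16 to 9.59) of the former and 4.59% (3.61 to 5.75) of the latter, against 5.46% of regions of all 4 libraries. In the mixed pairings it had 7.38% (5.59 to 9.52) for 25k and 75k against 5.73% (4.78 to 6.81) for 50k and 100k. For 25k and 100k it had 5.84% (4.57 to 7.33), against 4.82% (3.73 to 6.13) for 50k and 75k. The side with 25k was thus higher in all 3 splits, but the intervals overlap in both mixed ones. Chromosome X went the other way, with 1.21% (0.625 to 2.10) at low and 2.17% (1.51 to 3.02) at high input. The mixed pairings gave 1.91% against 2.89% and 1.61% against 3.14%. Of the whole lists chromosome X had 1.77%, 2.02%, 1.95% and 1.96% from 25k to 100k. Over the whole lists, chromosome 15 had 5.93%, 5.72%, 5.53% and 5.39% of the peaks from 25k to 100k. Without the peak-dense block from 61 to 64 Mb, which had 0.957%, 0.826%, 0.795% and 0.679% of the peaks, chromosome 15 had 5.02%, 4.94%, 4.78% and 4.74%. In these 4 libraries the share went down with each step in cell number, with and without the block. Of the low-input regions 18 (1.81%) lay in the block, and of the high-input regions 12 (0.765%).

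Along the genome, cell input moved no more 1 Mb windows than the mixed pairings did, but it had the widest single gap. Of 2359 windows, 326 (13.8%) held a larger share of the list in both low-input libraries and 390 (16.5%) in both high-input libraries. The mixed pairings gave 429 (18.2%) for 25k and 75k, 374 (15.9%) for 50k and 100k, 355 (15.0%) for 25k and 100k, and 427 (18.1%) for 50k and 75k. The widest gap between the shares of the sides was 3.37 per 10000 for low input and 1.7 for high input. On the sides of the mixed pairings it was 2.01, 1.28, 1.57 and 1.49, in the order above. The low-input windows with the widest gap were on chromosome 15 at 6 to 7 Mb and 62 to 63 Mb, and on chromosome 12 at 24 to 25 Mb. The first contains Rictor, a subunit gene of the mTORC2 kinase complex, and the cytokine receptor gene Osmr, and had 59, 80, 49 and 51 peaks from 25k to 100k, or 15.2, 18.3, 11.8 and 11.2 per 10000 of the list. The second had 46.3, 42.9, 40.0 and 34.0 per 10000. The third contains Klf11, a transcription factor gene, and Rrm2, a ribonucleotide reductase gene, and had 7.72, 7.76, 5.54 and 5.71.

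For high input the widest gaps were on chromosome 6 at 72 to 73 Mb and on chromosome 13 at 23 to 24 Mb and 104 to 105 Mb. The window on chromosome 6, with the transcription factor gene Tcf7l1 and the actin-capping gene Capg, had 54, 60, 68 and 71 peaks, or 13.9, 13.7, 16.4 and 15.6 per 10000. The window at 23 to 24 Mb contains much of the large cluster of replication-dependent histone genes, such as H3c1 and H4c1, and had 43, 54, 57 and 63 peaks, or 11.1, 12.3, 13.7 and 13.8 per 10000. At 104 to 105 Mb, with the centromere protein gene Cenpk, there were 12, 14, 20 and 20 peaks. In each of these 6 windows the low-input and high-input shares do not overlap, as the rule that named them requires.

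**Figure D3:**
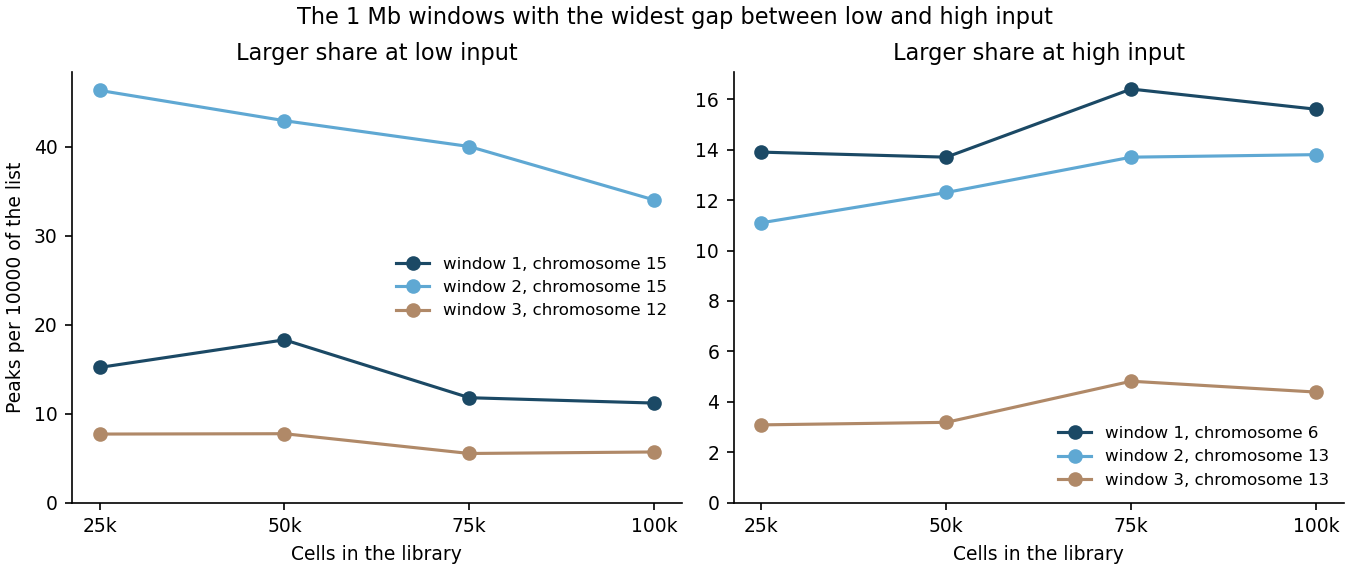
Peaks per 10000 of each list (vertical axis, from 0, on different scales) by cell number for the 3 windows of 1 Mb with the widest gap in each direction, numbered in the order of the text. At low input window 2 falls from 46.3 to 34.0, and at high input window 2, on chromosome 13, goes from 11.1 to 13.8.

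Strength within the shared regions was compared by rank. The 25787 regions of all 4 libraries were ranked by their highest score within each library, from 0 to 100. In 4422 regions (17.1%) both low-input ranks exceeded both high-input ranks, and in 4291 (16.6%) the reverse held. Mixed pairings gave 4231 (16.4%) for 25k and 75k, 4178 (16.2%) for 50k and 100k, 4296 (16.7%) for 25k and 100k, and 4346 (16.9%) for 50k and 75k. The difference between the mean ranks of the sides had an SD over regions of 13.0 points for low against high, and of 12.7 and 12.9 for the mixed pairings. The median absolute difference was 7.59 points, against 7.38 and 7.56, and in all 8713 regions differed in rank between the sides, against 8409 and 8642. Low against high input was thus the widest of the 3 splits by a small margin. It came second in 3 of 5 alternatives, for example with 8609 regions against 8430 and 8732 when ranked by the mean score of a region's peaks.

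**Figure D4:**
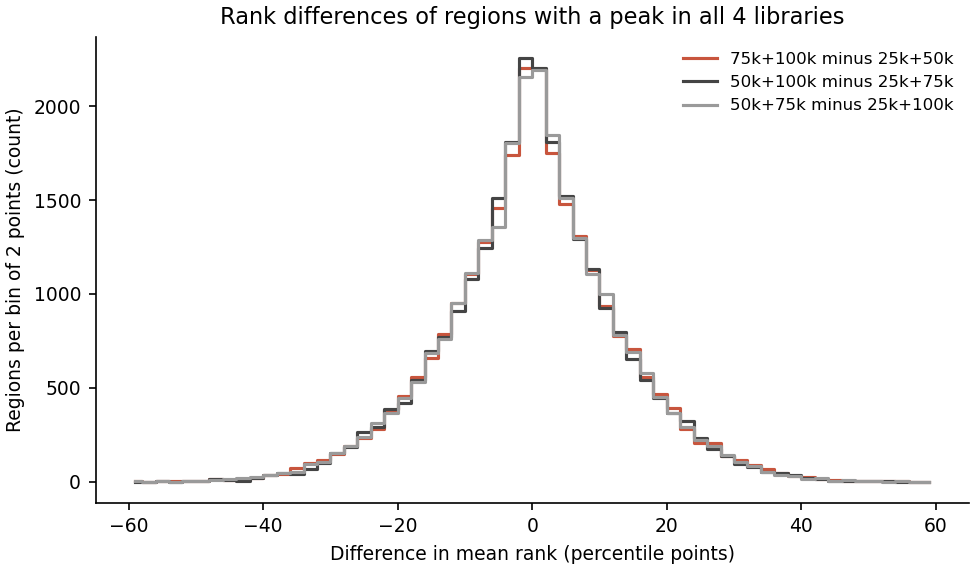
Number of regions per bin of 2 points (vertical axis) by the difference in mean rank between the sides of each pairing (horizontal axis, percentile points), for 25787 regions with a peak in all 4 libraries. The red curve of low against high input lies close to the black and grey curves of the mixed pairings, with SDs of 13.0, 12.7 and 12.9.

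The regions that stood out most at low input were distal or inside genes. A region 2953 bp from Fem1b, which encodes a substrate receptor of a ubiquitin ligase, scored 30 and 37 at 25k and 50k but 12 and 12 at 75k and 100k (chr9:62814601-62815200). Its ranks were 71.4, 71.1, 14.3 and 9.82, so that a gap of 56.7 points separated low from high input, the widest of any region. A region inside Flt4, the gene of a receptor for lymphatic growth factors, scored 23, 28, 10 and 11. One 2473 bp from Zfp36, whose protein speeds the decay of AU-rich mRNAs, scored 31, 37, 15 and 15. One 2308 bp from the tight junction gene Cldn2 scored 34, 45, 14 and 20, and one in the zinc transporter gene Slc39a14 scored 26, 34, 8 and 16. The Slc39a14 region was listed as 2 peaks at 75k, where it scored 8, and as 1 peak in each other library. All 5 were in the upper range of ranks at low input, between 56.3 and 79.7, and between 1.27 and 33.6 at high input. The centres of the Fem1b, Zfp36 and Cldn2 regions were -3252, -2797 and -2708 bp from the starts, that is upstream of them.

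At high input the widest gap was 45.4 points, in S100b, a calcium-binding protein gene, at chr10:76257751-76258500. Its scores were 14, 16, 41 and 39 and its ranks 26.7, 24.1, 79.6 and 72.1 from 25k to 100k. A region at the shared start of Ube2j1, a ubiquitin-conjugating enzyme gene, and the non-coding gene 4933421O10Rik scored 10, 14, 37 and 32. This region was listed as 2 peaks at 25k and at 50k but as 1 peak at 75k and at 100k. Whether the division into peaks lowered its scores at low input was not tested. Regions in the lipid transporter gene Abca4 (8, 15, 29 and 35), near the small GTPase gene Arl4a (8, 10, 27 and 25) and in the collagen receptor gene Itga2 (12, 14, 30 and 31) completed the 5. Over these 5, the low-input ranks were at most 26.7 and the high-input ranks at least 47.2. The widest gaps of the mixed pairings were 44.5 to 49.0 points, below that of Fem1b and around that of S100b.

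A larger contrast was found in where these regions lie. Among regions ranked higher at low input, 27.7% (26.4 to 29.0) were within 1 kb of a start, and among those ranked higher at high input 36.4% (35 to 37.9), around the 31.5% of all ranked regions. The mixed pairings, however, gave 26.9% (25.6 to 28.3) for 25k and 75k against 36.6% (35.2 to 38.1) for 50k and 100k, and 29.1% (27.8 to 30.5) for 25k and 100k against 32.6% (31.2 to 34.0) for 50k and 75k. In all 3 splits the side with the 25k library was the lower one. Each library was therefore set against the other 3, after seeing the data. Of 7023 regions that ranked highest at 25k, 26.4% (25.4 to 27.5) were near a start, and of 7077 that ranked lowest there, 37.5% (36.3 to 38.6). At 100k the order was the reverse, with 35.2% of the highest and 27.1% of the lowest, at 50k 33.6% and 30.1%, and at 75k 31.7% and 30.7%.

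Without the 25k library the intervals of low and high input overlapped. Regions that ranked higher at 50k than at 75k and 100k were near a start in 31.5% (30.5 to 32.5) of 8583 cases, and those that ranked lower in 32.4% (31.4 to 33.4) of 8469. With 4 libraries the rule was stricter and selected 4422 and 4291 regions. The shares with and without 25k are therefore not directly comparable. Among these 3 libraries, the other splits kept a contrast. Regions higher at 75k than at 50k and 100k were near a start in 30.1% (29.2 to 31.1) of cases and those lower in 32.7% (31.7 to 33.7), and for 100k against 50k and 75k the shares were 33.1% (32.1 to 34.1) and 29.6% (28.6 to 30.5). Start-proximal regions had a mean rank of 59.7 at 25k and of 61.9, 61.7 and 62.6 at 50k, 75k and 100k. The 25k library also stood apart in rank as a whole. Across the 25787 regions its Spearman correlation was 0.788 with 50k, 0.774 with 75k and 0.786 with 100k, against 0.815, 0.822 and 0.817 among the other 3. These correlations are across regions that share their libraries and are a description only. Promoter windows under the regions were alike in base composition, with a median of 62.0% G and C for those ranked higher at low and 62.7% for those ranked higher at high input, and 62.0% to 62.7% in the other pairings.

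**Figure D5:**
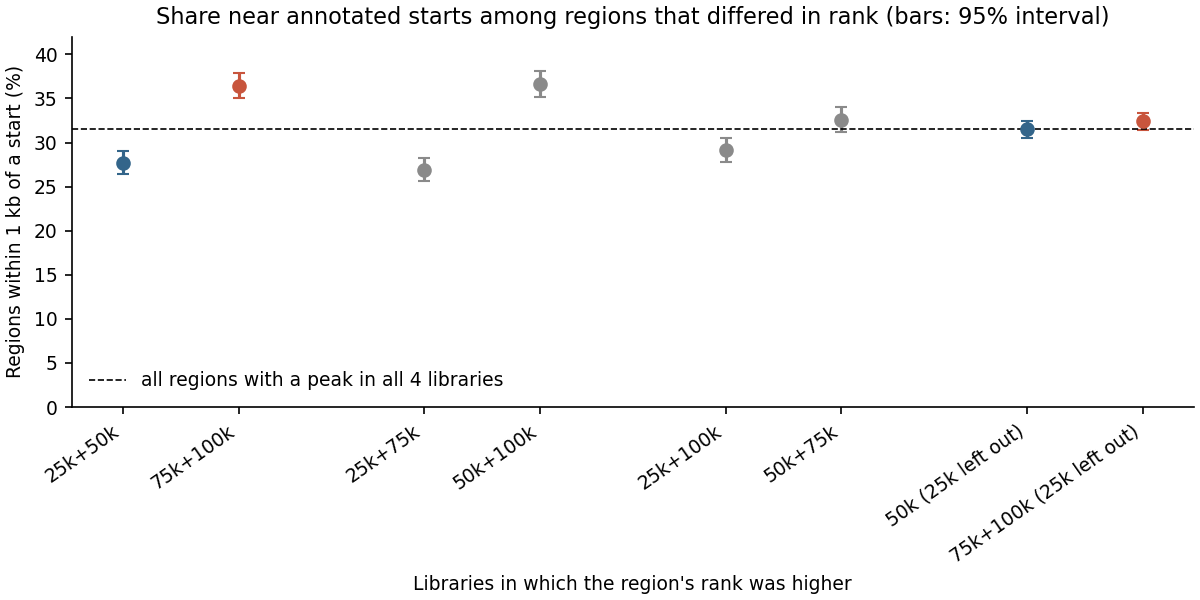
Share of regions within 1 kb of an annotated start (vertical axis, %) among regions that ranked higher in the libraries named below each point, with 95% Clopper-Pearson intervals. Blue is low input, red high input and grey mixed; the dashed line is the 31.5% of all ranked regions. Each side with 25k is below the line. The last pair, without 25k, lies at 31.5% and 32.4% and comes from a looser rule that compares fewer libraries.

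Chromosome M had more peaks at high input, and part of the rise lay in how long stretches were divided. It had 6, 7, 8 and 10 peaks from 25k to 100k, and 6, 6, 7 and 7 once overlapping peaks of a list were joined. Peaks covered 50.9%, 54.3%, 54.6% and 56.1% of its length. The stretch over mt-Rnr2, the large ribosomal RNA gene, and the complex I genes ND1 and ND2 was 2 peaks at 25k and 50k, 3 at 75k and 4 at 100k. Over the complex I gene ND5 a peak with a score of 697 at 12751 to 13250 was listed at 100k only, where it overlapped the end of the stronger peak before it. A peak over ATP6, an ATP synthase gene, and COX3, a cytochrome oxidase gene, from 8251 to 8700 or 8750, was absent at 25k and scored 17, 50 and 35 at 50k, 75k and 100k. Of the merged regions of chromosome M it was the only one not shared by all 4 libraries, and 25k is the one that lacked it.

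The strongest chromosome M peaks did not change place with cell number. The peak over ND4 and ND5 ranked 1 in every list, that over CYTB 2, and that over ND5 3. The COX1 peak ranked 5 at 25k and 4 in the other 3 lists, having changed places with the ND1 and ND2 peak. Low and high input do not overlap in the number of chromosome M peaks, but the exact test over 2 against 2 libraries cannot go below the p of 0.333 given above.

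Genes beside these regions were counted in lists chosen with earlier results of these data known. Of 21896 protein-coding genes, 527 (2.41%) had a low-input region in the gene or within 1 kb, and 891 (4.07%) a high-input region. Of 322 genes in 16 lists, 13 had a low-input and 22 a high-input region. In the mixed pairings the numbers were 7 and 35, and 22 and 22. For all 21896 genes those sides gave 1.85% and 4.86%, and 2.98% and 3.17%.

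The Hippo pathway list had 5 of 20 members with a high-input region and 0 with a low-input one. The pathway is a kinase cascade that restrains the co-activators YAP and TAZ and is known to respond to cell density and contact. Amotl2, an angiomotin family gene, had the strongest of these regions, with 19 at 75k and 10 at 100k. Ccn1 and Ccn2, genes of matricellular proteins known as YAP targets, had 12 and 10 and 9 and 8. Amotl1 had 8 and 12, and Stk3, the gene of the kinase MST2, 8 and 9. Of the same 20 genes, 1, 0, 2 and 1 had a region in the 4 sides of the mixed pairings. The list's 25% is the highest share of any list at low or high input. It stands beside 4.07% of all genes and 22 of the 322 list genes. In a mixed pairing 3 of 10 endothelial markers (30%) had a region of 50k and 100k alone. The scores of the Hippo regions are mostly near the lower limit of 8. A link with cell number was not tested. Each of the 5 genes had other peaks at 25k and 50k, so that none went from closed to open in the lists. From 25k to 100k, Amotl2 had 7, 6, 7 and 9 peaks in all, Amotl1 6, 7, 8 and 7, Stk3 3, 3, 4 and 3, Ccn1 2, 4, 2 and 2, and Ccn2 1, 1, 3 and 1. The total was highest at 100k in Amotl2 alone.

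In the epithelial list, 2 of 30 genes had a low-input region and 0 a high-input one. Among them was the keratin gene Krt7 (8 and 9 at 25k and 50k). In the mixed pairings 0, 6, 2 and 3 genes of this list had one. Of 26 genes for focal adhesions and the actin cytoskeleton, 3 had a low-input region, which were the myosin gene Myh9 (11 and 13), the actin cross-linker gene Actn4 (14 and 10) and the focal adhesion kinase gene Ptk2 (10 and 11). As many had a high-input region, namely Ptk2 again, at another position, with 12 and 21, the adaptor gene Pxn (11 and 16) and the laminin receptor gene Itga6 (8 and 13). In the mixed pairings 1, 5, 4 and 5 genes of this list had one. Of 23 stress response genes the same 2 had a region on each side, the chaperone gene Hsph1 and the thioredoxin reductase gene Txnrd1. In the mixed pairings 1, 3, 2 and 1 genes of this list had one. At Txnrd1 the low-input region was at the start, at chr10:82860101-82860850 with 15 and 13, and the high-input region 29434 bp downstream with 11 and 9. A gene can therefore count on both sides, through different regions.

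The remaining lists had at most 2 members on the low-input or high-input side. Of all protein-coding genes, 2.41% had a low-input and 4.07% a high-input region. Among AP-1 and immediate early genes, Atf3 had a low-input region (8 and 13) and Fos a high-input one (8 and 14), of 22. Of 22 cell cycle genes, 0 had a low-input region and 2 a high-input one, which were the replication helicase gene Mcm5 (9 and 17, with its centre at -809 bp from its start) and the tumour suppressor gene Rb1 (8 and 9). Of 26 chromatin regulators, the acetyltransferase gene Crebbp had a low-input region at its start (8 and 11), and Arid1b (9 and 9) and Eed (8 and 8) had high-input regions. In the mammary luminal list, Foxa1, a pioneer factor gene, had 10 and 13 and the receptor gene Kit 14 and 8 at high input, of 20 genes. Of 24 TGF-beta genes, 1 had a low-input region, which was Tgfbr2 through a region over the neighbouring non-coding gene Gm40582, and 2 a high-input one, among them Ltbp1 (13 and 19). The 1 mesenchymal gene of 20 with a low-input region was Tagln, whose region lay nearer to Sidt2 (11 and 13). Among 20 housekeeping genes the low-input region was that of Rps18, which lay over B3galt4 (20 and 10), and the high-input ones were in Polr2a (9 and 15) and Sdha (8 and 8). In the mixed pairings the AP-1 list had 1, 1, 2 and 0 genes with a region. The cell cycle list had 0, 0, 1 and 3, and the chromatin list 0, 2, 2 and 2. The mammary luminal list had 0, 3, 2 and 1, and the TGF-beta list 0, 4, 2 and 1. For mesenchymal genes these counts were 2, 1, 0 and 0, and for housekeeping genes 0, 2, 0 and 2. The p53 and apoptosis list had 0 of 22 on both sides, and 1, 4, 0 and 2 in the mixed pairings. Blood markers had 1 of 14 on each side, Spi1 (9 and 9) at low and Itgam (15 and 15) at high input, and fibroblast, endothelial and neuronal markers had 0. Of the 10 endothelial markers 0, 3, 1 and 0 had one in the mixed pairings. There, 0, 1, 0 and 0 of 10 fibroblast markers and 0, 0, 2 and 1 of 14 neuronal markers had one. Blood markers had 0 on each of those sides.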

How the data were processed

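Peak lists of 4 ATAC-seq libraries of NMuMG cells were used. In the lists that the authors deposited, each peak has its coordinates and a score in whole numbers. The submitters' processing notes name bedtools 2.17.0, Picard 1.107, Bowtie 0.12.8, SAMtools and cutadapt and the build mm10, taken here for the mouse libraries. The caller's settings, what the score measures, any shift for Tn5 and any thinning of reads are, in the sources used here, not given. Scores were ranked within a list only. No read counts were used, so depth and its precision are unknown.

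Peaks were merged at an overlap of 1 bp, and ranks were taken among regions with a peak in all 4 libraries. Genes, starts and promoter sequences came from RefSeq tables of GRCm38.p6, and all 322 list genes matched. The members and lists were chosen with earlier results of these data known. Named were the 8 regions per side with the highest lower percentile, the 5 with the widest rank gap, up to 4 genes per list and side (for the Hippo list the fifth was added after its values were seen), every chromosome M peak and 3 windows of 1 Mb per side. Not every item that these rules select is reported here. The merging and ranking were tested on simulated data with well separated regions and little noise between libraries, and all planted counts were recovered. Planted rises in rank were counted only in regions simulated with a rank below the mean. This checks the code and does not show how reliable rank calls are in these noisier lists. Python 3.11.15, pandas 2.3.3, numpy 2.4.6 and scipy 1.17.1 were used. Alternatives were other peak widths, overlaps, score filters, equal list lengths, other windows and single libraries.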

Additional observations from a re-analysis of the deposited data

How the results depend on the processing

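The excess of high over low input in regions of 1 side alone held in all 7 alternative treatments of the lists, with ratios from 1.13 to 2.16. Kept to the peaks that reached the median score of their list, the counts were 432 (low) and 934 (high). The place of low against high between the other pairings changed in 1 of them, equal list lengths. A single library against another, which counts far more regions, gave 6731 at 25k but not 75k and 9040 the reverse, 5315 and 11354 for 25k and 100k, 9284 and 6878 for 50k and 75k, and 7514 and 8838 for 50k and 100k, so the excess turned over for 50k against 75k. The share near a start was 5.63% (low) and 7.33% (high) within 500 bp, 23.3% and 21.6% within 5 kb, and 6.44% and 7.91% for protein-coding genes. On the sides of the other pairings it was 4.59% to 6.01% within 500 bp. Within 5 kb it was 19% to 22.3% on those sides, and for protein-coding genes 5.21% to 6.43%. For scores of 8 to 11 alone it was 8.19% at high input, below the 10.1% at low input, so the order of low and high, which was within counting error, turned there and at 5 kb. Near either end of a gene the shares were 13.0% and 16.6%. Rank differences of at least 5 points were found in 2315 (low) and 2221 (high) regions, of which 22.5% and 33.9% were near a start. These shares were 22.3% and 33.8% for 25k and 75k against 50k and 100k. For 25k and 100k against 50k and 75k they were 24.7% and 28.9%. For rank differences of any size, 34.6% and 42.5% were near either gene end. The pairing of shorter against longer lists gave 32.6% and 42.8%, and the remaining pairing 35.7% and 38.9%. Without 25k, under a looser rule, 31.5% and 32.4% were near a start. Ranks over the full lists gave 3587 and 5049 regions, and 2787 and 5961 in the pairing of shorter against longer lists. Without scaling to list length, 100 windows had more peaks at low and 370 at high input. The mixed pairings gave 37 (25k and 75k) and 686 (50k and 100k), and 143 (25k and 100k) and 266 (50k and 75k). Joining overlapping peaks lowered the chromosome M counts as given above. No paired analysis was possible because each cell number has 1 library, and no result comes from a test.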
